A study of Mus musculus with 3 samples.

Results

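Cells of mouse bone marrow that carried mRNA of both Flt3 and Irf8 but little of the genes that mark their nearest relatives were taken from droplet single-cell RNA sequencing of 3 genotypes. Of 19762 cells kept, 162 were in this gate, 20 from the Lztr1 knockout, 68 from Rit1-M90I and 74 from the Cre-negative control. A cell entered it with at least 2 UMIs of Flt3 and at least 2 of Irf8, where a UMI is one counted mRNA molecule. It could hold at most 1 UMI of Dntt plus Cox6a2, 2 of Siglech, 2 of the MHC class II genes H2-Aa, H2-Ab1 and H2-Eb1 together and 3 of F13a1 plus Ms4a6c. Stem cell genes (Hlf, Mecom, Procr and Adgrl4) were limited to 1 UMI together, and Cd79a had to be 0. These genes chose the cells, so their values are given below as a description only.

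The mice were 8 weeks old and all received 3 doses of pIpC at 12 mg/kg, a double-stranded RNA that induces interferon and through it the Mx1-Cre recombinase, and marrow was collected after a further 4 weeks. Live cells lacking CD3, CD11b, Gr1, B220 and Ter119 were sorted. The Lztr1 knockout mice were Lztr1 fl/fl;Mx1Cre+, the Rit1-M90I mice Rit1 M90I/+;Mx1Cre+ and the Cre-negative control mice Rit1 M90I/+ Mx1Cre-, and the control's title also calls it wild type. Mx1-Cre acts in interferon-responsive cells and not in marrow alone. Both mutants carried Mx1-Cre and the control did not, so effects of Cre and of the alleles cannot be told apart. The Rit1-M90I allele was present in the control as well, without the recombinase. There was 1 library per genotype, and no source used here gives the number of mice behind it, so there is no replicate and no test. Intervals in parentheses are 95% and cover counting error only.

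FLT3 is the receptor for FLT3 ligand, the cytokine that sustains early lymphoid and dendritic cell progenitors, and IRF8 is a transcription factor that steers myeloid progenitors to monocytes and dendritic cells and away from granulocytes. The monocyte-dendritic progenitor is defined in mice by surface FLT3, CSF1R (the receptor for macrophage colony-stimulating factor) and CX3CR1 (the fractalkine receptor), with KIT and CD34 marking its progenitor state. It is regarded as a source of monocytes, conventional dendritic cells and, through common dendritic progenitors, some plasmacytoid dendritic cells, the main producers of type I interferon. RIT1 is a RAS-related GTPase, and LZTR1 is the adaptor of a CUL3 ubiquitin ligase that targets RIT1, and certain RAS proteins, to the proteasome. RAS signalling runs through the RAF, MEK and ERK kinases and is one of the pathways that act below FLT3 and CSF1R.

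IRF8 and its relatives recognise the interferon-stimulated response element, and the promoters of 2 leading genes of the gated cells are shown because they hold its core. Both windows run from 250 bases before to 50 bases after the gene start in RefSeq on GRCm38.p6. The Bst2 window, for the antiviral membrane protein tetherin, is chr8:71537423-71537722 on the minus strand, and the Ctss window, for the lysosomal protease cathepsin S, is chr3:95526536-95526835 on the plus strand. Capitals mark matches, on either strand, to a GAAA repeated after 2 free bases (GAAA, any 2 bases, GAAA), which begin 130 and 124 bases before the Bst2 start, where they overlap, and 21 bases before the Ctss start.
Bst2: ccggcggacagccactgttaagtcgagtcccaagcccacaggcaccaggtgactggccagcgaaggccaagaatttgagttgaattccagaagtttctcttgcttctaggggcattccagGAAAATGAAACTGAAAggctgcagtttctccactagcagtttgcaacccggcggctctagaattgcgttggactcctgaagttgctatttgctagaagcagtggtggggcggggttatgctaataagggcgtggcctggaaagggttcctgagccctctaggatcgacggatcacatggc
Ctss: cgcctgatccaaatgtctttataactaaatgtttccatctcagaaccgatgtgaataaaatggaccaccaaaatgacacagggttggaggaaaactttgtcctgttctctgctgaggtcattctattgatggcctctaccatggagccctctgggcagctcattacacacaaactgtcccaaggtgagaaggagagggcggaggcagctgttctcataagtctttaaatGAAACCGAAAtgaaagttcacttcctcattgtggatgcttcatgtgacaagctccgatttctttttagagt
Of the 20 leading genes named below, 17 had a promoter in the RefSeq table, and 2 of these 17 genes held this core. It was present in 3.99% of all 27025 genes of the table, and in 3.44% of their 32851 promoters, where the leading genes had 2 of 23. The composite of GGAA, any 2 bases and GAAA, at which a PU.1-like and an IRF protein can bind side by side, was found in 0 of 17 genes against 3.16% of all genes. A core of the PU.1 motif, GAGGAAGT, was found in 1 of 17 (Ctss) against 3.69% of genes, and the E-box CANNTG, the motif of factors such as TCF4, in 16 of 17 against 74.99%. Both strands were searched, and a match is a run of letters and not a binding site.

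The gated cells held 190375 UMIs in the Lztr1 knockout, 530997 in Rit1-M90I and 574763 in the control, so that a gene at 100 CPM rested on 19.0, 53.1 and 57.5 UMIs in these libraries. CPM is a gene's UMIs scaled to a fixed total of the summed cells. The median gated cell had 8575 UMIs in the Lztr1 knockout, 6583.5 in Rit1-M90I and 7454 in the control, and 4.28%, 4.28% and 4.27% mitochondrial UMIs. The kept cells as a whole had medians of 10140.5, 6885 and 7021 UMIs in the same libraries. Doublet calls fell on 3 gated cells of the Lztr1 knockout, 3 of Rit1-M90I and 4 of the control and were left in. Between 5 and 19 cell barcodes were shared by each pair of libraries, and 0 of these were in the gate. In the Lztr1 knockout 2 of the 20 gated cells stood apart with 239 and 174 hemoglobin UMIs, where the next cell had 1, and the highest gated cell had 3 in Rit1-M90I and 4 in the control. List results of the Lztr1 knockout are given with and without these 2 cells.

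Both gate genes had 2 UMIs or more in 327 cells of the Lztr1 knockout, 989 of Rit1-M90I and 810 of the control, and the limits on the other genes kept 6.12%, 6.88% and 9.14% of them. The limit on F13a1 plus Ms4a6c, genes of monocyte progenitors, was the only one broken by 112 cells of the Lztr1 knockout, 407 of Rit1-M90I and 250 of the control. That on Dntt plus Cox6a2 alone removed 68 Lztr1 knockout, 185 Rit1-M90I and 206 control cells. The gated cells are therefore a narrow slice beside larger monocytic and Dntt-positive populations. Flt3 ran from 2 to 7 UMIs per gated cell in the Lztr1 knockout, 2 to 6 in Rit1-M90I and 2 to 7 in the control. It stood exactly at the threshold of 2 in 9 Lztr1 knockout, 39 Rit1-M90I and 36 control cells, while 17, 81 and 75 cells of the same libraries missed the gate for having 1 Flt3 UMI. Irf8 ran from 2 to 42, 2 to 30 and 2 to 32 UMIs in the Lztr1 knockout, Rit1-M90I and the control, with medians of 14, 11 and 11, and only 1, 7 and 7 cells stood at its threshold. Cells with 3 UMIs of F13a1 plus Ms4a6c, just inside, numbered 6, 15 and 22, and cells with 4, just outside, numbered 4, 27 and 14. Such a gate has a background, seen among erythroid progenitors gated by Klf1 and Car1, with medians of 22620.5, 19996 and 20805 UMIs. In the Lztr1 knockout, Rit1-M90I and the control, 5.76%, 8.32% and 6.24% of them had 2 or more Irf8 UMIs. Flt3 reached 2 UMIs in 3.14%, 3.59% and 2.47%, or 12, 28 and 19 erythroid cells, and both genes did in 8, 21 and 18. The part of free RNA or of doublets in these counts was not tested.

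The defining receptors of a monocyte-dendritic progenitor were present in the gated cells but did not lead. Csf1r had 63.0 CPM in Lztr1 knockout, 60.3 in Rit1-M90I and 66.1 in control gated cells, against 33.7, 40.3 and 33.3 CPM in the other kept cells of these libraries. It had a UMI in 50% of gated Lztr1 knockout cells, 36.8% of Rit1-M90I and 36.5% of control cells, where the erythroid progenitors gave 3.15%, 4.75% and 3.91% at a higher median depth. With every cell thinned to 3000 UMIs these shares were 30.0%, 20.6% and 21.9% in gated cells and 28.0%, 25.2% and 29.1% in monocyte progenitors gated by F13a1 plus Ms4a6c. Cx3cr1 had 57.8 CPM in Lztr1 knockout, 52.7 in Rit1-M90I and 52.2 in control gated cells, against 25.7, 27.0 and 27.2 CPM in other kept cells. Both receptors were thus above the other cells in each library and close to the monocyte progenitors in detection. Kit, the stem cell factor receptor, was lower in gated cells, with 73.5 CPM in the Lztr1 knockout, 47.1 in Rit1-M90I and 67.9 in the control, against 111, 104 and 109 CPM in other kept cells. Cd34, a sialomucin of progenitors, had 105 CPM in Lztr1 knockout gated cells and 108 in the other cells of that library, 186 against 95.9 in Rit1-M90I and 209 against 110 in the control. Spi1, which encodes PU.1, had 210, 211 and 198 CPM in gated cells of the Lztr1 knockout, Rit1-M90I and the control, against 118, 149 and 134 in other kept cells.

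Genes of plasmacytoid dendritic cells were among the leading genes. The 20 genes with the largest excess over the other kept cells, by the smallest log2 ratio of the 3 libraries, were Flt3, Gm34680, Irf8, Runx2, Mpeg1, Bst2, Tmem229b, Tcf4, Lsp1, Ctss, Ahnak, Kctd12, S100a6, Ly86, Grn, Mef2c, Bcl2, Atp2b4, Psap and Hes6. Runx2, a factor of bone and of plasmacytoid dendritic cells, had 284 CPM in Lztr1 knockout, 299 in Rit1-M90I and 256 in control gated cells, against 74.0, 65.5 and 73.6 CPM in other kept cells. Tcf4 encodes the E protein that sets plasmacytoid identity and had 368, 446 and 357 CPM in gated cells of the Lztr1 knockout, Rit1-M90I and the control, against 143, 130 and 132. Bst2, whose promoter is printed above, had 457, 512 and 440 CPM against 167, 151 and 171. These 3 genes were higher in the gated cells of every library by similar amounts. Mpeg1, the pore-forming perforin-2 of phagocytes, had 268 CPM in Lztr1 knockout, 192 in Rit1-M90I and 202 in control gated cells, against 65.0, 60.6 and 59.8, and Ctss had 137, 179 and 120 against 47.3, 60.6 and 45.6. The long noncoding RNA Gm34680 (GRCm38 chr16:32550211-32553708, plus strand) had 305, 315 and 219 CPM against 46.4, 41.1 and 53.5. Mef2c, a factor of lymphoid and myeloid progenitors, had 504, 452 and 416 CPM against 204, 186 and 183, and the survival gene Bcl2 had 320, 269 and 365 against 132, 117 and 136.

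By list, 5 of 11 plasmacytoid dendritic cell genes measured at 20 CPM or more (Tcf4, Bst2, Runx2, Mpeg1 and Grn) were at least 2-fold higher than the other kept cells in all 3 libraries and 0 were lower, where 0.609% of all 5911 genes were higher and 0.744% lower. Of 17 monocyte lineage genes 4 were higher (Klf4, Ly86, Ctss and Psap) and 1 lower (Fcgr3, an Fc receptor). Of 19 progenitor genes 0 were higher and 1 was lower (Gata2, a factor of stem, mast and basophil cells), and of 8 conventional dendritic cell genes and of 6 early lymphoid genes 0 passed in either direction. The median log2 ratio of the conventional dendritic cell genes was nevertheless 1.29 in the Lztr1 knockout, 0.49 in Rit1-M90I and 0.41 in the control, beside 1.17, 1.52 and 1.32 for the plasmacytoid genes. Of 11 neutrophil granule genes 8 were at least 2-fold lower in every library, among them Elane, Prtn3, Ctsg and Ms4a3, with medians of -2.40 in the Lztr1 knockout, -1.43 in Rit1-M90I and -1.43 in the control. Markers of erythroid, basophil, megakaryocyte, lymphocyte and plasma cells were lower in 10 of 19, with medians of -1.86, -2.04 and -1.88 in these libraries. S phase and G2 and mitosis genes passed 2-fold in neither direction, 0 of 48 and 0 of 49. The label of monocyte-dendritic progenitors is thus met in part, with Csf1r, Cx3cr1 and Spi1 above other cells, Kit below them, and plasmacytoid genes ahead of monocyte and conventional dendritic cell genes by median in Rit1-M90I and the control but not ahead of conventional dendritic cell genes in the Lztr1 knockout. They are called Flt3/Irf8-gated cells here.

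**Figure D1:**
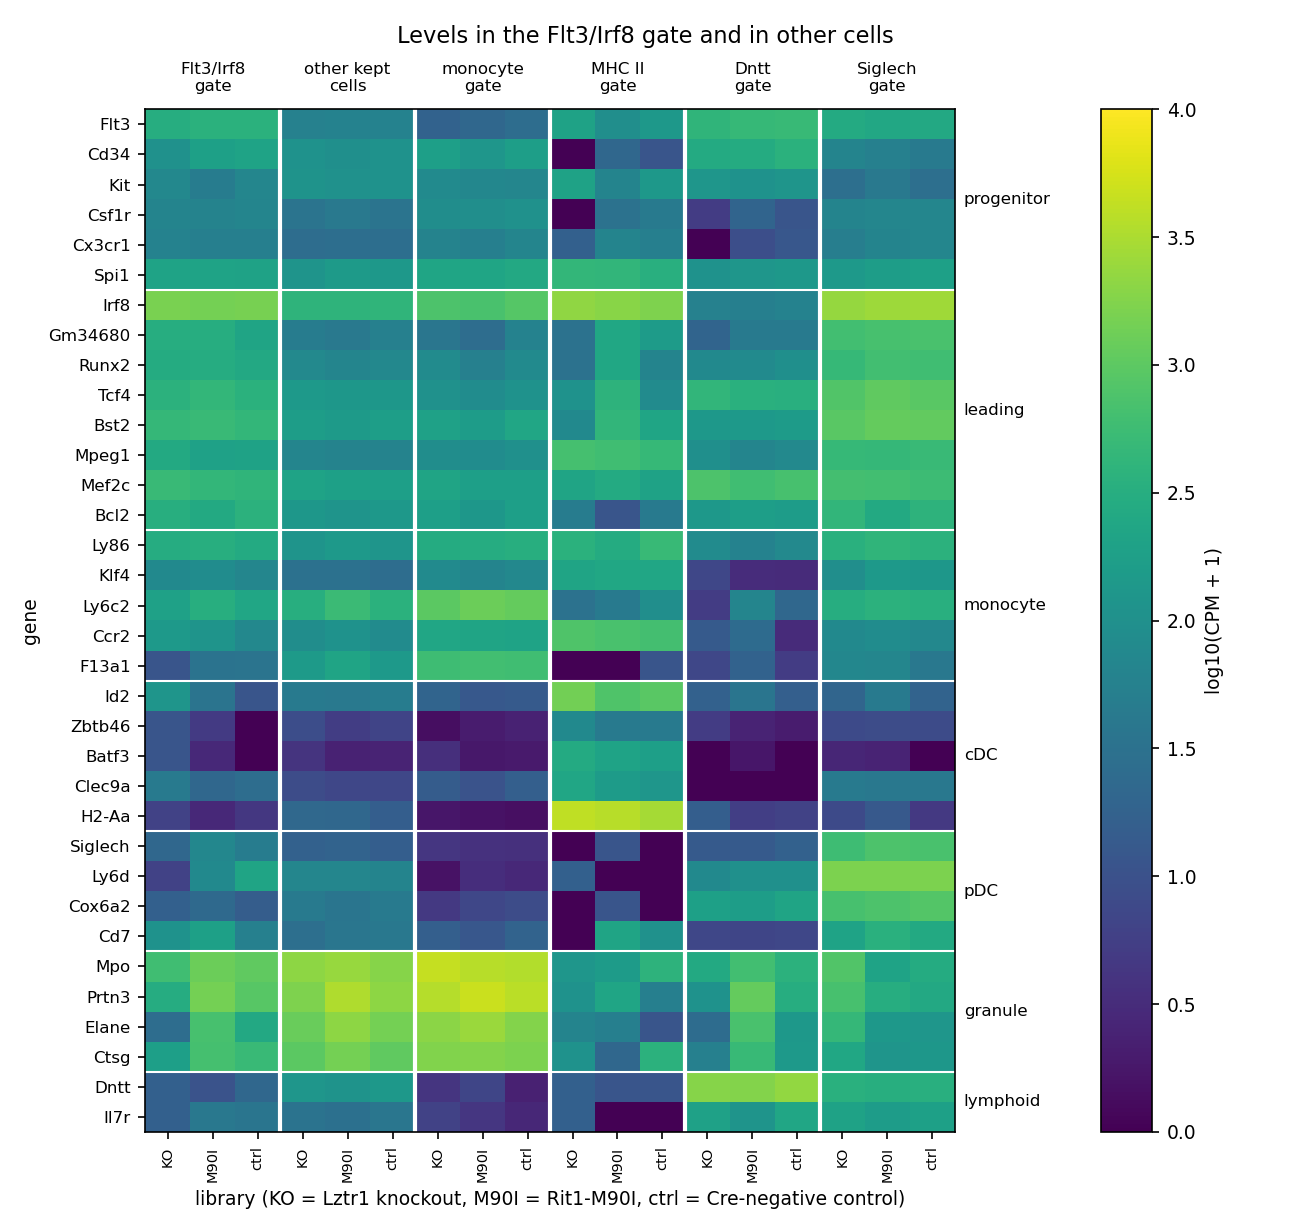
Levels of gate, marker and leading genes, as log10(CPM + 1) in colour, in Flt3/Irf8-gated cells, other kept cells and 4 neighbouring gates, with a column for each library (Lztr1 knockout, Rit1-M90I, Cre-negative control). Gated cells have Runx2, Tcf4 and Bst2 above other kept cells and below or near the Siglech gate, hold far less Ly6d than that gate (1598 to 1639 CPM there), and stay under the monocyte gate in Elane and Prtn3.

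Cells with 3 or more Siglech UMIs, the sialic acid-binding receptor of plasmacytoid dendritic cells, were the nearest of the neighbouring populations by count of genes past 2-fold in all 3 libraries. There were 64 such cells in the Lztr1 knockout, 206 in Rit1-M90I and 133 in the control. Of 6015 genes 2 (0.0333%) were at least 2-fold higher in the Flt3/Irf8-gated cells of every library and 29 (0.482%) were lower. Ifitm3, an interferon-induced antiviral membrane protein, had 158 CPM in Lztr1 knockout, 181 in Rit1-M90I and 217 in control gated cells, against 70.7, 68.0 and 55.6 CPM in the Siglech gate. Ly6d, a surface protein of lymphoid and plasmacytoid precursors, separated the populations most among genes outside the rule, with 5.25, 77.2 and 214 CPM in gated cells of the Lztr1 knockout, Rit1-M90I and the control against 1639, 1598 and 1602 CPM. The interleukin-7 receptor Il7r had 15.8, 39.5 and 34.8 CPM against 204, 163 and 189, and Cmah, Nucb2 and Atp1b1 were also among the lowest. Of the 18 listed plasmacytoid genes 16 were measured here, against 11 in the comparison with other kept cells. A gene that met the floor of 20 CPM only through the Siglech gate had to be lower in gated cells, so the count is a description. Runx2, Mpeg1 and Grn did not pass 2-fold in all 3 libraries. Of these 16 genes 6 were lower than in the Siglech gate, Tcf4 and Bst2 among them. Cd34 went the other way, with 105 CPM in Lztr1 knockout, 186 in Rit1-M90I and 209 in control gated cells, against 62.1, 55.0 and 43.8 in the Siglech gate. The Siglech gate was added after the leading genes had been seen.

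Against monocyte progenitors (8 or more UMIs of F13a1 plus Ms4a6c and at most 1 of Flt3; 318 Lztr1 knockout, 1442 Rit1-M90I and 834 control cells), 0.738% of 5692 genes were higher and 0.545% lower in gated cells. Ptprcap, which encodes a partner of the CD45 phosphatase, had 179, 183 and 275 CPM in gated cells of the Lztr1 knockout, Rit1-M90I and the control, against 51.5, 47.4 and 57.6 in monocyte progenitors. The lymphoid and dendritic factor Bcl11a had 378, 296 and 291 CPM against 74.1, 63.3 and 95.2, and Tcf4, Runx2, Gm34680 and Ctr9 were higher as well. Mcpt8, a basophil protease, also ranked among the highest, with 163, 388 and 254 CPM against 31.3, 128 and 102, and a few cells carried much of it, as described below. On the lower side, Ly6c2, the Ly6C antigen of monocytes, had 194, 318 and 228 CPM in gated cells of the Lztr1 knockout, Rit1-M90I and the control, against 985, 1250 and 1132. The granule proteases Elane and Prtn3, the granule-associated Ms4a3, Gstm1 and the factor Cebpb followed, and 6 of 10 granule genes were at least 2-fold lower in every library. Of 18 monocyte genes 0 were higher and 3 lower, while 4 of 10 plasmacytoid genes were higher and 0 lower.

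Against early lymphoid cells gated by 2 or more Dntt UMIs and at most 1 of Irf8 (53 Lztr1 knockout, 177 Rit1-M90I and 128 control cells), 1.34% of 5969 genes were higher and 1.42% lower in gated cells. Of 16 monocyte genes 12 were higher and 0 lower. S100a6, a calcium-binding protein, had 341 CPM in Lztr1 knockout, 439 in Rit1-M90I and 289 in control gated cells, against 18.7, 27.4 and 20.6 in the Dntt gate. The galectin Lgals1 had 1376, 1537 and 1625 CPM against 143, 179 and 186, and Lgals3, Ahnak, Fcer1g (the signalling chain of Fc receptors), Ly6c2 and the cathepsin Ctsh were also among the 8 highest. Of the 16 listed lymphoid genes 9 were measured here, against 6 in the comparison with other kept cells. Of these 9 genes 6 were lower, including the recombinases Rag1 and Rag2 and the B cell factor Ebf1. A gene that met the floor of 20 CPM on 1 side only had to be higher on that side. The monocyte and lymphoid counts are therefore a description. Outside the rule the lowest were Arpp21, Myl10, Ctla2a, Gimap6 and Gimap1, for example Arpp21 with 0, 0 and 3.48 CPM in gated cells of the Lztr1 knockout, Rit1-M90I and the control against 133, 118 and 177.8. The MHC class II gate (10 or more UMIs of these genes and of Cst3) held 11 Lztr1 knockout, 18 Rit1-M90I and 19 control cells and differed most of these 4 gates, with 2.49% of 5940 genes higher and 3.43% lower in Flt3/Irf8-gated cells. Cd74, the invariant chain of MHC class II, had 15.8, 9.42 and 13.9 CPM in gated cells against 9879, 8408 and 7931, and 12 of 19 conventional dendritic cell genes were lower. Cst3, which helped choose the MHC class II gate, is among these 12. Of the 22 listed genes 19 were measured here, against 8 in the comparison with other kept cells. A gene that met the floor of 20 CPM only through the MHC class II gate had to be lower in gated cells, so this count is a description. The progenitor genes Cd93, Cd34 and Sox4, along with Bcl2, Car1, Igfbp4, Gria3 and Cdca7, were highest, and of 48 S phase genes 13 passed upward in gated cells.

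The 162 gated cells were not uniform, and Irf8 level ordered them. Irf8 ran from 1.51 to 37.9 UMIs per 10000 (median 18.02) in the 20 Lztr1 knockout cells, from 0.632 to 42.8 (median 15.9) in the 68 Rit1-M90I cells and from 2.18 to 51.1 (median 11.8) in the 74 control cells. The 4 granule genes Mpo, Ctsg, Prtn3 and Elane ran from 0 to 61.6 per 10000 (median 7.47) in the Lztr1 knockout, 0 to 319 (median 11.4) in Rit1-M90I and 0 to 225 (median 6.17) in the control. When all 162 were ranked by Irf8 and cut into groups of 54, the low, middle and high groups had 459, 1551 and 3248 CPM of Irf8. The low group held 5 Lztr1 knockout, 19 Rit1-M90I and 30 control cells, the middle group 10, 26 and 18, and the high group 5, 23 and 26. Total UMIs fell along the same order, with medians of 9141, 7596.5 and 5811. Irf8 per 10000 and total UMIs correlated across cells at r = -0.56 in the Lztr1 knockout, -0.61 in Rit1-M90I and -0.42 in the control. The gate asks for 2 Irf8 UMIs, which keeps shallow cells out of the lowest Irf8 levels, so the rule set part of this correlation. Depth thus moves with every value of this paragraph and the next, and its part was not tested.

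Summed over the cells of each group, granule and progenitor genes were highest where Irf8 was lowest. From low to high Irf8, Mpo, the myeloperoxidase of granulocyte and monocyte progenitors, had 1955, 546 and 238 CPM, Ctsg (cathepsin G) 990, 237 and 84.7, and Prtn3 (proteinase 3) 1767, 555 and 395. Elane, neutrophil elastase, had 863 CPM in the low group and 52.7 and 43.9 in the middle and high groups. Single cells weigh heavily in these sums, as low-group cells with 319, 225 and 196 UMIs per 10000 of the 4 granule genes show. From low to high Irf8, an Mpo UMI was found in 47, 38 and 24 of 54 cells and an Elane UMI in 28, 14 and 11. Cd34 had 264, 170 and 62.8 CPM, Kit 104, 26.3 and 28.2, and Myc, the growth factor-responsive transcription factor, 150, 100.5 and 28.2. The basophil proteases Prss34, with 1029, 52.7 and 25.1 CPM, and Mcpt8, with 600.4, 95.7 and 21.97, had sums in the same order, set by few cells. In the low group 1 Rit1-M90I cell held 482 of that library's 533 basophil marker UMIs and 1 control cell 410 of 464. A Prss34 UMI was found in 12, 16 and 8 of 54 cells from low to high Irf8. The part of basophil RNA or of doublets in the low group was not tested. The order of plasmacytoid, monocyte and receptor genes was the reverse. Runx2 had 75.1, 304 and 599 CPM, Tcf4 209, 404 and 709, and Bst2 161, 462 and 1032. Ly6c2 had 134, 208 and 549 CPM, the monocyte factor Klf4 14.3, 79.0 and 185, Csf1r 39.3, 59.8 and 110, and Cx3cr1 30.4, 50.3 and 97.3. Siglech, which the gate limits, had 10.7, 47.9 and 132 CPM, with a UMI in 4, 16 and 27 of 54 cells. By sum, monocyte and plasmacytoid genes were thus high in the same end of the gate. Sums do not show whether the same cells carried both, and this was not tested. The upper limits of the gate count raw UMIs, so cells of low depth meet them more easily, and depth was lowest in the high group. The part of these limits in the order was not tested. Cd7, a surface protein of lymphoid and plasmacytoid cells, had 8.93, 76.6 and 355 CPM, and Ly6d 35.7, 129 and 286. The proliferation gene Top2a had 288, 359 and 580.5 CPM. Over single cells the genes most correlated with Irf8, in log counts per 10000, were Gm34680 (r = 0.69), Psap (0.65), Lgals1 (0.65), Runx2 (0.64) and Actb (0.64), and the most opposed were Ctsg (-0.62) and Mpo (-0.61), over 162 cells that share libraries and depth. Mpo was at r = -0.21 within the 20 Lztr1 knockout cells, -0.58 within Rit1-M90I and -0.72 within the control.

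**Figure D2:**
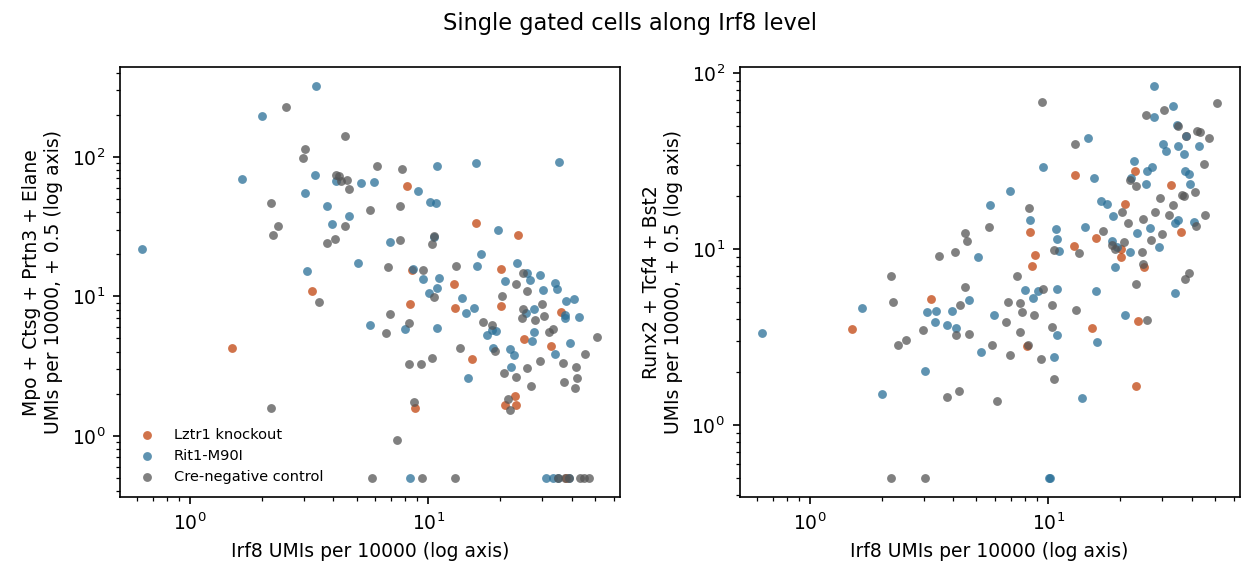
Each point is 1 of the 162 gated cells, coloured by library. The horizontal axis is Irf8 UMIs per 10000 and the vertical axes are the summed granule genes (left) and Runx2, Tcf4 and Bst2 (right) per 10000 plus 0.5, all on log axes. Granule genes fall and the other 3 genes rise with Irf8, and the cells with the most granule UMIs, up to 319 per 10000, are from Rit1-M90I and the control.

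Gated cells were 0.826% of kept cells in the Lztr1 knockout (0.505 to 1.27), 0.693% in Rit1-M90I (0.538 to 0.877) and 0.984% in the control (0.773 to 1.23). The share relative to the control was 0.839 times in the Lztr1 knockout (0.513 to 1.37), with 0.704 times in Rit1-M90I (0.507 to 0.977). After thinning every cell to 3000 UMIs, which left out 296 Lztr1 knockout, 2401 Rit1-M90I and 1537 control cells below that depth, the gate took 1.32%, 1.12% and 1.24%, and the ratios were 1.07 (0.692 to 1.64) and 0.905 (0.663 to 1.24). Without doublet calls the Rit1-M90I ratio was 0.721 (0.515 to 1.01). With Flt3 and Irf8 at 3 UMIs or more it was 0.635 (0.389 to 1.04). With a cell filter of 2000 UMIs, 1000 genes and 5% mitochondrial UMIs it was 0.737 (0.497 to 1.09). The lower share in Rit1-M90I was thus beyond counting error only with the gate and filter as first set. Thinning makes the upper limits of the gate easier to meet and the lower limits harder, so it takes other cells. The part of depth in the difference was not tested. With Flt3 and Irf8 at 1 UMI or more the gate took 46 Lztr1 knockout, 211 Rit1-M90I and 166 control cells, or 1.90%, 2.15% and 2.21%. Cells with 2 UMIs of both genes, before the other limits, were 13.5% of the Lztr1 knockout, 10.1% of Rit1-M90I and 10.8% of the control, a ratio to the control of 1.25 in the Lztr1 knockout (1.11 to 1.41), with 0.936 in Rit1-M90I (0.857 to 1.02), so for the Lztr1 knockout the direction depended on the limits.

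**Figure D3:**
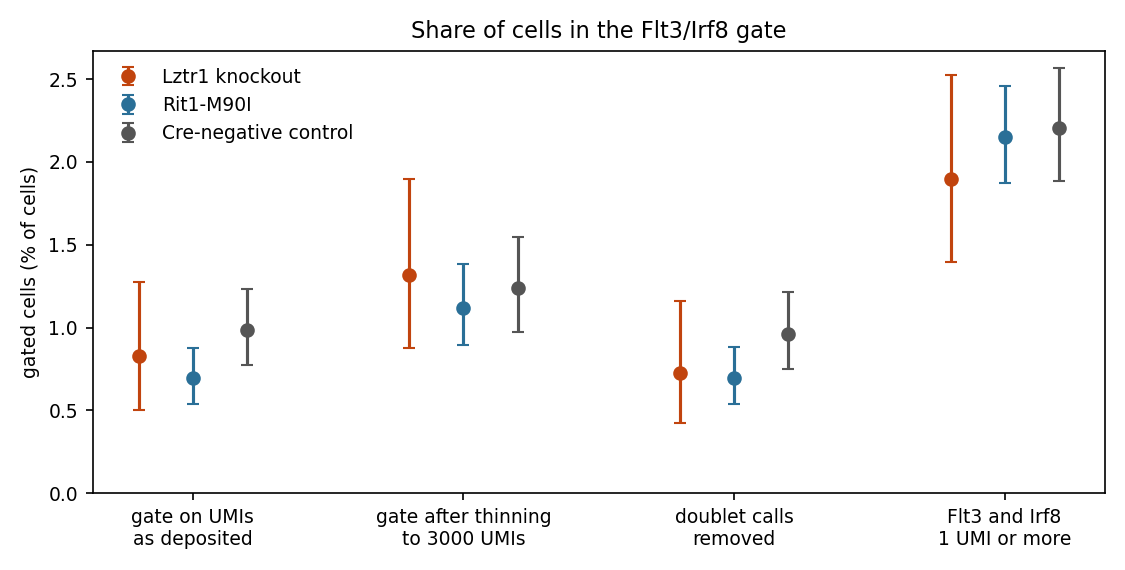
Share of cells in the Flt3/Irf8 gate, in percent, for the Lztr1 knockout, Rit1-M90I and the Cre-negative control under 4 settings, with exact 95% intervals for counting error. The intervals of the 3 libraries overlap under every setting shown, at 0.826%, 0.693% and 0.984% as deposited and 1.32%, 1.12% and 1.24% after thinning.

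Lztr1 (GRCm38 chr16:17508688-17526333, plus strand), the targeted gene, had 1 UMI in the gated Lztr1 knockout cells, 10 in Rit1-M90I and 10 in the control, or 5.25, 18.8 and 17.4 CPM. Rit1 (chr3:88716838-88731049, plus strand) had 0, 4 and 7 UMIs, where a count of 0 allows up to 15.8 CPM in the Lztr1 knockout, against 7.53 CPM in Rit1-M90I and 12.2 in the control. The labels do not name the deleted exons. UMIs of Lztr1 from outside them would still be counted, so its level is no full check of the deletion, and at these counts neither gene can be compared within the gate.

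Summed over gated cells, the Lztr1 knockout had more G2 and mitosis mRNA and less granule mRNA than the control. The median gated cell did not hold less granule mRNA, with 16.8 UMIs per 10000 in the Lztr1 knockout and 15.6 in the control. Among genes at 100 CPM or more, 173 of 1674 (10.3%) were at least 1.5-fold higher and 111 (6.63%) lower, on log2((CPM + 10)/(CPM + 10)). Median-of-ratios scaling, which moved the median of all genes by over 0.1, to -0.04 against 0.08, gave 111 higher and 153 lower. Without the 2 hemoglobin-rich cells 215 were higher and 133 lower. Over genes at 20 CPM or more, the background for the lists, 18.9% of 6981 genes were higher and 12.3% lower.

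Of 54 G2 and mitosis genes 36 were higher in the Lztr1 knockout and 0 lower, with a median log2 ratio of 0.81 against 0.08 over all genes. Birc5, which encodes the chromosomal passenger protein survivin, had 310 CPM in Lztr1 knockout gated cells and 87.0 in the control. The mitotic kinase Nek2 had 42.0 CPM in the Lztr1 knockout and 6.96 in the control, and the proliferation antigen Mki67 had 557 and 284. Like any gene that reached the floor of 20 CPM only through the knockout, Nek2 had to be higher there. Of 57 listed genes 54 reached the floor in this comparison and 47 in that of Rit1-M90I, so the count of higher genes is a description. Ube2c, which works with the anaphase-promoting complex, had 263 CPM in the Lztr1 knockout and 83.5 in the control. At the other end of the list Aurka had 26.3 CPM in the Lztr1 knockout and 26.1 in the control, and Bub1b 26.3 and 34.8. The list summed to 64.4 UMIs per 10000 in the median Lztr1 knockout cell and 36.7 in the median control cell, but 2 cells held 37.6% of its UMIs in the Lztr1 knockout and 13.4% in the control. More than 100 per 10000 was reached by 7 of 20 Lztr1 knockout, 9 of 68 Rit1-M90I and 15 of 74 control cells. Without the 2 hemoglobin-rich cells 29 of 54 were higher and 1 lower, with a median log2 ratio of 0.65, and 2 of the remaining 18 cells held 47.1% of the list's UMIs. With Flt3 and Irf8 at 1 UMI or more the median was 0.39, and in the other kept cells of the same libraries 0 of 51 passed and the median was 0.19. S phase genes had 10 of 48 higher and 3 lower, with a median of 0.24, and Pola1 and Rrm2 at the top. Without the 2 cells their median was -0.11, with 3 higher and 8 lower, so the S phase direction rested on those cells.

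Granule genes in gated Lztr1 knockout cells were lower in 7 of 10 and higher in 1 (Hdc), with a median log2 ratio of -1.29 with or without the 2 cells. Elane had 26.3 CPM in the Lztr1 knockout and 261 in the control, a ratio of 0.101 (0.0322 to 0.240), from 5 UMIs and 150, of which 52 lay in 1 control cell. Prtn3 had 294 CPM in the Lztr1 knockout and 919 in the control, Ctsg 179 and 505, and Mpo 583 and 1058. The median cell, however, held 16.8 granule UMIs per 10000 in the Lztr1 knockout and 15.6 in the control, and 0 of 20 against 7 of 74 cells held more than 100. The sum was thus lower while the median cell was not. With Flt3 and Irf8 at 1 UMI or more the list median turned to 0.44, with Elane at 0.55, so the direction did not hold in the wider gate.

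Among the 10 genes with the highest ratio in the Lztr1 knockout were Hbb-bs, Hba-a1, Hbb-bt, Hba-a2, Hemgn, Ctse, Id2, Car2 and Ermap. Hemoglobin chains and carbonic anhydrase 2 (Car2) are erythroid products, and the 2 hemoglobin-rich cells carried most of them. The 8 erythroid markers summed to 3146 CPM in Lztr1 knockout gated cells, 557 in Rit1-M90I and 407 in the control, and to 263 CPM in the Lztr1 knockout without those cells. Hbb-bs had 1108 CPM in the Lztr1 knockout, 211 UMIs in 2 cells, and 8.70 in the control, and was at 0 without them. The other kept cells were also higher in the knockout for the 4 globins, for instance 212 CPM of Hbb-bs against 46.4 in the control. Id2 (chr12:25093799-25097140, minus strand), the inhibitor of E proteins that favours conventional over plasmacytoid dendritic cells, had 121 CPM in the Lztr1 knockout, 33.9 in Rit1-M90I and 10.4 in the control. Its 23 knockout UMIs came from 5 cells and 15 of them from 1, and the other kept cells had 42.3, 40.0 and 47.2 CPM in these libraries.

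Conventional dendritic cell genes were higher in 5 of 11 and lower in 2 in Lztr1 knockout gated cells, with a median log2 ratio of 0.53, and in 7 and 2 of 11 without the hemoglobin-rich cells (0.77). A pair of cells held 31.6% of the list's UMIs in the Lztr1 knockout, 38.1% without the hemoglobin-rich cells, and 11.9% in the control. Cst3, the protease inhibitor cystatin C, had 1728 CPM in the Lztr1 knockout and 1037 in the control, Cd24a 341 and 167, and Cd209a, a C-type lectin, 31.5 and 5.22, from 6 UMIs and 3. Itgax, which encodes CD11c, went the other way with 0 UMIs in the Lztr1 knockout and 26 in the control. Of 22 listed genes 11 were under the floor of 20 CPM. Cd209a met the floor only through the knockout and Itgax only through the control, so each had to be higher on that side. Runx3 had 252 CPM in the Lztr1 knockout and 94.0 in the control, with 19 of its 48 knockout UMIs in 1 cell. Plasmacytoid genes passed in 2 of 13 upward and 3 downward, with a median of 0.04, and in 2 and 3 of 12 without the 2 cells (0.15).

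The lowest 10 genes in the Lztr1 knockout were Ly6d, Igha, Prss34, Elane, Prtn3, Cdk9, Ifitm1, Ctsg, Hprt and Jun. Ly6d (chr15:74762056-74763620, minus strand) had 1 UMI in the 20 Lztr1 knockout cells, 41 in 15 of 68 Rit1-M90I cells and 123 in 16 of 74 control cells, a ratio to the control of 0.0245 in the Lztr1 knockout (0.000616 to 0.139), with 0.361 in Rit1-M90I (0.247 to 0.518). In the other kept cells Ly6d had 68.0, 67.7 and 63.0 CPM in the Lztr1 knockout, Rit1-M90I and the control. By cells, a Ly6d UMI was found in 5% of the Lztr1 knockout (0.127 to 24.9), 22.1% of Rit1-M90I (12.9 to 33.8) and 21.6% of the control (12.9 to 32.7), and these intervals overlap. The highest control cell held 22 of its 123 UMIs. Ifitm1 had 57.8 CPM in Lztr1 knockout gated cells and 179 in the control, and the other kept cells also had less, 169 against 301. Jun, a component of the AP-1 factor, had 36.8 CPM in the Lztr1 knockout and 111 in the control, with 51.0 and 85.3 in the other kept cells. Cdk9, the kinase that releases paused polymerase, had 36.8 and 129 CPM, and Hprt, a purine salvage enzyme, 63.0 and 183. Igha and Prss34, a plasma cell and a basophil mRNA, were set by few cells: 57 of 164 control UMIs of Igha and 256 of 287 of Prss34 lay in 1 cell. Cd34 in the Lztr1 knockout was 0.503 times the control (0.297 to 0.812).

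Fewer genes passed 1.5-fold in Rit1-M90I, whose gated cells held 530997 UMIs in 68 cells where the Lztr1 knockout had 190375 in 20, so the counts of the mutants are not comparable. Among genes at 100 CPM or more, 27 of 1524 (1.77%) were at least 1.5-fold higher and 42 (2.76%) lower, and under median-of-ratios scaling 49 and 33. In the other kept cells, at 20 CPM or more, 16 genes were higher and 25 lower of 6074 in the Lztr1 knockout, and 20 and 13 of 6001 in Rit1-M90I. Over genes at 20 CPM or more in gated cells 5.74% of 6476 were higher and 7.29% lower, with a median of -0.03. The 10 highest were Gm42031, Cd7, Elane, Kdelr1, Gm49980, Car2, Pld4, Ass1, Ctsh and S100a4, and the 10 lowest Apoe, Ly6d, Igha, Ifi27l2a, Sec31a, Ptp4a3, Copa, Nsd2, Gusb and Pds5a. Gm42031 is a long noncoding RNA (chr8:85125872-85132289, minus strand) and had 117 CPM in Rit1-M90I gated cells and 10.4 in the control, a ratio of 11.2 (4.86 to 31.6), with 45.5 and 3.85 CPM in the other kept cells. Its excess was therefore shared with the rest of the library. Cd7 (chr11:121036747-121039418, minus strand) had 185 CPM in Rit1-M90I gated cells, in 26 of 68, and 53.9 in the control, in 13 of 74, a ratio of 3.42 (2.26 to 5.30), while the other kept cells had 35.7 and 39.1. In the Lztr1 knockout Cd7 also passed 1.5-fold upward, with a UMI in 6 of 20 gated cells. The excess of Cd7 over the control was thus not particular to Rit1-M90I. The Siglech gate had 348 CPM of Cd7 in Rit1-M90I and 269 in the control, with a Cd7 UMI in 73.8% and 60.2% of its cells. The Golgi receptor Kdelr1, which returns proteins to the endoplasmic reticulum, had 104 CPM in Rit1-M90I and 34.8 in the control, with no cell above 3 UMIs. Sec31a and Copa, coat proteins of vesicles between the same compartments, were lower, with 50.8 CPM of Sec31a in Rit1-M90I and 108 in the control, and 62.1 and 115 of Copa.

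Pld4, a nuclease of endolysosomes, had 105 CPM in Rit1-M90I and 55.7 in the control, but its log2 ratio was -0.057 with Flt3 and Irf8 at 1 UMI or more, and Ctsh had 198 and 113. S100a4 had 115 CPM in Rit1-M90I and 64.4 in the control, and the urea cycle enzyme Ass1 147 and 80.03. The interferon-induced Ifi27l2a had 94.2 CPM in Rit1-M90I and 219 in the control, and the other kept cells were lower as well, 33.9 against 66.1. Apoe, an apolipoprotein of macrophages and early erythroid progenitors, had 28.2 CPM in Rit1-M90I and 106 in the control, where 35 of 61 UMIs lay in 1 cell. Granule genes were higher in 5 of 10 and lower in 0, with a median log2 ratio of 0.52, and 4 of 12 were higher in the other kept cells too (median 0.39). Elane had 686 CPM in Rit1-M90I and 261 in the control, with 197 of 364 Rit1-M90I UMIs in 1 cell, and 2 cells held 40.5% of all granule UMIs of Rit1-M90I and 24.9% in the control. G2 and mitosis genes had 3 of 47 higher and 1 lower (median -0.00), and S phase genes 0 and 4 of 48 (median -0.15). Plasmacytoid genes had 2 of 12 higher, Cd7 and Spib, and 1 lower, Ly6d.

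**Figure D4:**
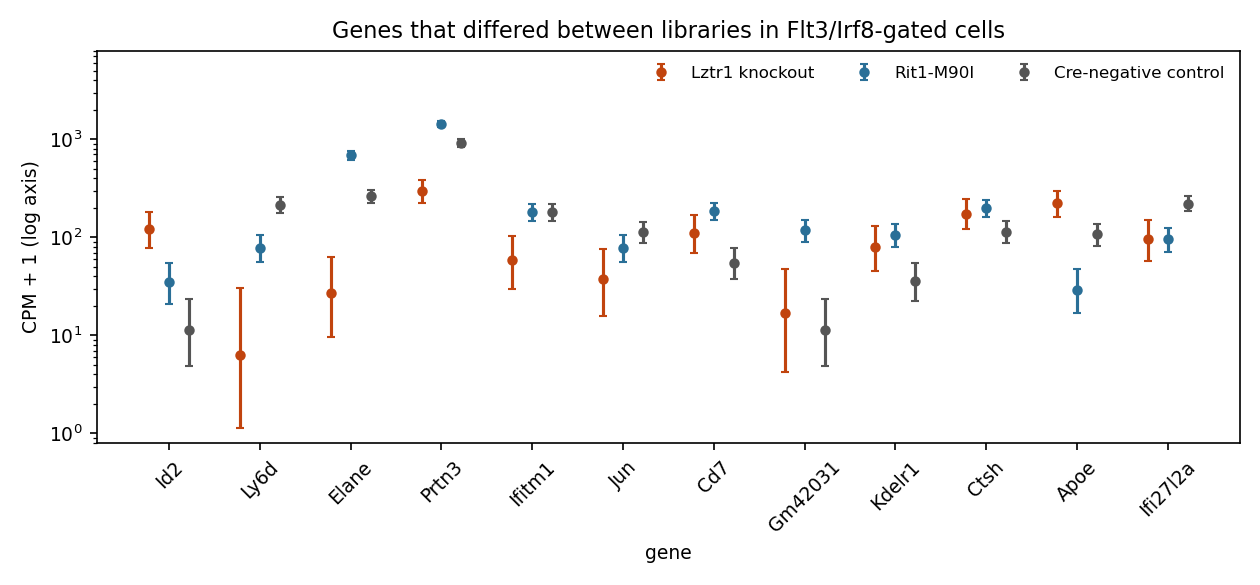
CPM plus 1 on a log axis in Flt3/Irf8-gated cells of the Lztr1 knockout, Rit1-M90I and the Cre-negative control, with exact Poisson 95% intervals for counting error. Id2 is highest and Ly6d, Elane and Prtn3 are lowest in the Lztr1 knockout, while Cd7 and Gm42031 are highest in Rit1-M90I.

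Among 18 RAS pathway exchange factor, adaptor and kinase genes at 20 CPM or more, 5 were higher and 1 lower in the Lztr1 knockout, with or without the 2 cells, where 18.9% of all genes were higher and 12.3% lower, and Ptpn11 and Rasa2 were highest. Their median log2 ratio was 0.27, and 0.18 without the 2 cells. In Rit1-M90I 1 of 16 was higher and 0 lower (median -0.06), where 5.74% of all genes were higher and 7.29% lower. ERK feedback and output genes were mostly under the floor, with 4 of 19 measurable in the Lztr1 knockout, 1 higher (Dusp6, a phosphatase of ERK) and 1 lower, and 3 of 19 in Rit1-M90I, 0 higher and 1 lower. Without the 2 hemoglobin-rich cells 7 were measurable in the Lztr1 knockout, 4 higher and 1 lower, and the median was 0.72 in place of 0.01. Dusp6 then had 34.6 CPM from 5 UMIs, against 6.96 CPM in the control, and a scarce gene that reaches the floor only through the knockout had to be higher there, so these counts are a description of few UMIs. Interferon-stimulated genes were higher in 5 and lower in 3 of 23 in the Lztr1 knockout, median 0.08 (6, 5 and 0.18 without the 2 cells), and higher in 1 and lower in 2 of 19 in Rit1-M90I, median -0.18. MHC class I genes had 0 higher in both mutants and 4 and 3 of 19 lower, with medians of -0.26 in the Lztr1 knockout, with -0.21 in Rit1-M90I. Without the 2 cells the Lztr1 knockout had 3 lower and a median of -0.07. H2-K1 had 536 CPM in the Lztr1 knockout, 520 in Rit1-M90I and 726 in the control. Of cytokine and chemokine receptors 3 were higher and 5 lower of 25 in the Lztr1 knockout (5 and 4 of 24 without the 2 cells), and 3 and 1 of 26 in Rit1-M90I. The monocyte chemokine receptor Ccr2 had 147 CPM in the Lztr1 knockout, 115 in Rit1-M90I and 73.1 in the control, and Ifngr1, a chain of the interferon gamma receptor, 42.0, 94.2 and 99.2. The other interferon regulatory factors measured were under 80 CPM in every library, for example Irf2 at 78.8, 58.4 and 67.9 CPM and Irf7, the interferon-inducible member, at 26.3, 0 and 12.2 in the Lztr1 knockout, Rit1-M90I and the control.

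**Figure D5:**
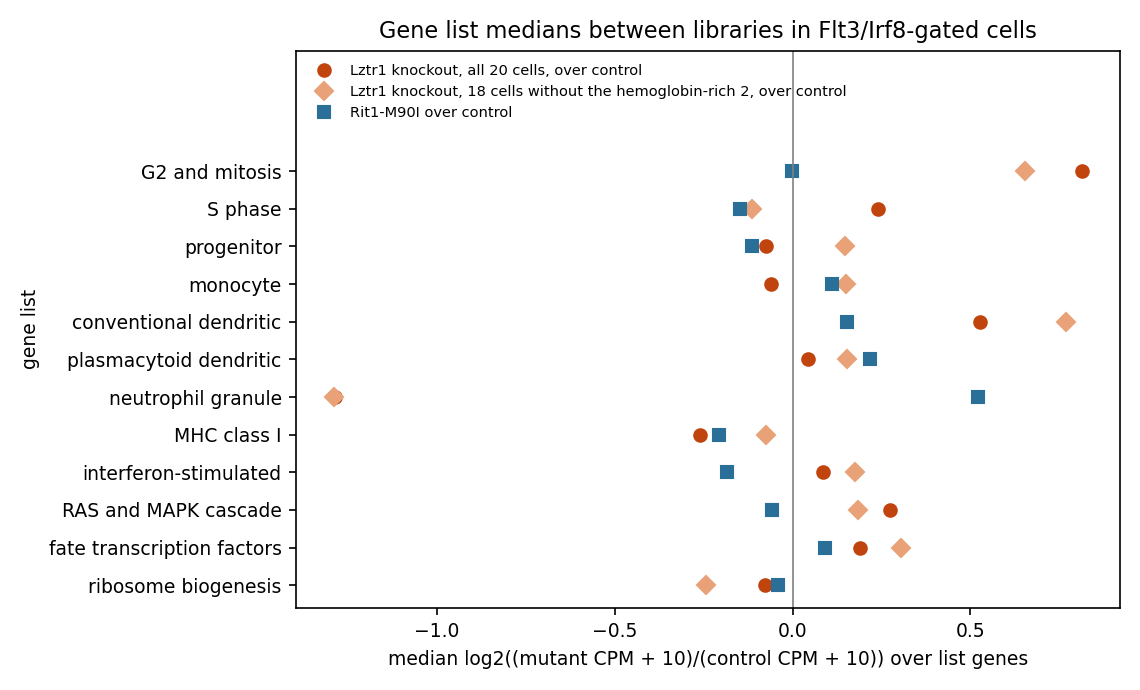
Median log2((mutant CPM + 10)/(control CPM + 10)) of 12 gene lists in Flt3/Irf8-gated cells, for the Lztr1 knockout with all 20 cells, with 18 cells without the hemoglobin-rich 2, and for Rit1-M90I. Granule genes lie at -1.29 with and without the 2 cells in the Lztr1 knockout and at 0.52 in Rit1-M90I. G2 and mitosis genes lie at 0.81 and 0.65 in the Lztr1 knockout and at -0.00 in Rit1-M90I, and S phase changes sign without the 2 cells.

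Markers of other cells moved with these differences. Neutrophil progenitor markers summed to 1093 CPM in Lztr1 knockout, 4171 in Rit1-M90I and 2796 in control gated cells, with Cebpe at 0 in the Lztr1 knockout. The 3 basophil markers summed to 226 CPM in the Lztr1 knockout, 1004 in Rit1-M90I and 807 in the control, where a single cell held 482 of 533 UMIs in Rit1-M90I and 410 of 464 in the control. Plasma cell markers summed to 184, 390 and 652 CPM and T cell markers to 5.25, 11.3 and 8.70 CPM in the Lztr1 knockout, Rit1-M90I and the control, and the megakaryocyte gene Pf4 was at 0 in all 3. Neutrophil, basophil, plasma and T cell sums were lowest in the Lztr1 knockout, and the erythroid sum was highest there. Without the 2 hemoglobin-rich cells the erythroid sum was 263 CPM, below 557 in Rit1-M90I and 407 in the control. The T cell sums rested on 1 UMI in the Lztr1 knockout, 6 in Rit1-M90I and 5 in the control. The part of such other cell types or of free RNA in the differences between libraries was not tested.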

How the data were processed

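Live marrow cells were profiled with 3' droplet libraries, 1 per genotype. For each barcode the authors deposited whole-number UMI counts of every gene, unnormalized and written by Cell Ranger 6.1.1 per the file headers, and the build was mm10 with Seurat 4.1.0 among the tools per the submitters' processing notes. No source used here names the annotation release. Each table covers 32285 genes, and they held 3014 barcodes in the Lztr1 knockout, 11573 in Rit1-M90I and 8476 in the control, with 30398349, 88560148 and 67541728 UMIs. Barcodes were kept at 1000 UMIs, 500 genes and at most 10% mitochondrial UMIs. Doublets were called with scrublet in scanpy 1.11.5 (84, 450 and 250 cells) and not removed, except in an alternative. UMIs were summed per library and population and divided by the total (CPM) in Python 3.11.15. Shares have exact Clopper-Pearson intervals, ratios of shares log-normal intervals, CPM exact Poisson intervals and CPM ratios exact conditional intervals, all at 95%. Log2 ratios carry a pseudocount of 10 CPM, which understates scarce genes. Between libraries a gene counted as higher or lower past 1.5-fold, and against other populations past 2-fold in all 3 libraries. The floor of 20 CPM could be met on either side of a comparison. A gene that met it on 1 side only had to be higher on that side. The calculation was tested on simulated counts drawn at random around the summed means of the gated cells. These counts did not cluster in single cells, so the simulation does not cover that spread.

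The gate and the gene lists were chosen with earlier results of these data known. Named genes were the gate genes, Lztr1 and Rit1, the 20 highest against other kept cells, the 8 highest and lowest against each neighbouring gate, the 10 highest and lowest in each mutant at 100 CPM or more, the 2 highest and lowest of each list described and the 5 most correlated with Irf8. A gene that this rule names and the RAS family list are not reported here. Other genes in the text were named after their values were seen. The Siglech gate, the gate with 1 UMI for expression and the values without the hemoglobin-rich cells were added after seeing the data. Genes with near-identical copies, such as the hemoglobin, H2 and immunoglobulin genes, can exchange reads.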

Additional observations from a re-analysis of the deposited data

How the results depend on the processing

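No paired analysis was possible because each genotype has 1 library, and there was no replicate to leave out. Of the main results under the alternatives 122 kept within the limits set and 70 moved, and of single genes and lists 650 kept, 112 moved and 18 reversed. Depth limits the Lztr1 knockout most, with 190375 UMIs in 20 cells. Values below are counts of genes or median or single log2 ratios, and "other cells" are the other kept cells. The cause of each change was not tested.

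As reported, genes past the fold numbered 173 higher and 111 lower in the Lztr1 knockout, 27 and 42 with Rit1-M90I, and for gated cells 36 and 44 against other cells, 42 and 31 against the monocyte, 148 and 204 against the MHC class II, 80 and 85 against the Dntt and 2 and 29 against the Siglech gate. In the Lztr1 knockout the G2 and mitosis median was 0.81, with -0.00 in Rit1-M90I, and the S phase median 0.24 and -0.15.

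With Flt3 and Irf8 at 1 UMI or more, G2 and mitosis in the Lztr1 knockout was 0.39, and counts were 33 higher and 32 lower in the Lztr1 knockout, 16 and 7 with Rit1-M90I, 16 lower against the monocyte gate, 6 and 19 against other cells and 20 and 66 against the Siglech gate. Reversed were the granule list (0.44), Elane (0.55) and Ctsg (0.055) in the Lztr1 knockout, as was Pld4 in Rit1-M90I (-0.057). At 3 UMIs or more, S phase was -0.12 for the Lztr1 knockout, with -0.44 for Rit1-M90I, with 372 higher and 187 lower in the Lztr1 knockout, 100 and 118 with Rit1-M90I and 86 lower against other cells. Reversed in the Lztr1 knockout were Car2 (-1.71), Ctse (-0.70), Ermap (-1.86), Hba-a1 (-0.41), Hbb-bs (-0.73) and Hbb-bt (-0.41), and in Rit1-M90I Car2 (-1.79).

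Without doublet calls, G2 and mitosis was 0.57 for the Lztr1 knockout, with -0.12 for Rit1-M90I and S phase -0.053 in the Lztr1 knockout, with 41 higher in Rit1-M90I, 100 lower against other cells and 5 higher against the Siglech gate. Reversed were Car2 in Rit1-M90I (-0.11) and Hbb-bs (-0.82) and Hbb-bt (-0.97) in the Lztr1 knockout. Without the 2 hemoglobin-rich cells S phase in the Lztr1 knockout was -0.11, with 67 lower against other cells and 4 higher against the Siglech gate, and Car2 (-0.42), Hbb-bs (-0.90) and Hbb-bt (-0.90) reversed. The mean of CPM per cell gave G2 and mitosis 0.57 for the Lztr1 knockout, with -0.15 for Rit1-M90I, S phase 0.0024 and -0.25, 42 higher and 66 lower in Rit1-M90I, 130 lower against the MHC class II gate, 133 lower against other cells and 9 higher against the Siglech gate.

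Median-of-ratios scaling gave 111 higher in the Lztr1 knockout, 49 in Rit1-M90I and 19 against the monocyte gate. With no low filter there were 2118 higher and 1686 lower in the Lztr1 knockout, 694 and 843 with Rit1-M90I and 252 higher against the MHC class II gate. With a pseudocount of 1 there were 43 higher in Rit1-M90I, 129 lower against the Dntt, 236 higher against the MHC class II and 71 higher against the monocyte gate, 75 higher against other cells and 8 higher and 52 lower against the Siglech gate. With 50 the G2 and mitosis median in the Lztr1 knockout was 0.52, with 95 higher and 63 lower there, 9 and 9 in Rit1-M90I, 27 and 20 against the Dntt, 26 and 82 against the MHC class II and 7 and 15 against the monocyte gate, 8 and 21 against other cells and 0 and 9 against the Siglech gate. The stricter cell filter gave G2 and mitosis 0.28 in Rit1-M90I, S phase 0.036 in the Lztr1 knockout, 303 higher and 179 lower in the Lztr1 knockout and 61 higher in Rit1-M90I, and Igha in Rit1-M90I reversed (0.19).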
